A study of Rattus norvegicus with 6 samples.

Results

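The prostaglandin and leukotriene enzymes examined here are 10 genes that make, or break down, the lipid mediators derived from arachidonic acid: Pla2g4a, Ptgs1, Ptgs2, Ptges, Hpgds, Ptgds, Hpgd, Alox5, Alox5ap and Lta4h. They were chosen by name, with earlier results of these data known. Every probe set whose only gene symbol in the array annotation was one of these names was taken, which gave 13 probe sets for 10 genes of 14217 named genes in all, and each gene is given by its brightest probe set. In male Sprague-Dawley rats aged 4 weeks, the upper first molars had been pulled from both sides of the mouth. A titanium alloy implant had been set into the left socket only. After 4 further weeks, the peri-implant soft tissue was taken from the left and the oral mucosal tissue from the healed site of the right socket, which had no implant. Both groups had therefore undergone extraction, and tissue and side of the mouth cannot be told apart. Each group had 3 arrays. Whether each array stands for its own rat is not stated in the labels; the p-values rest on the spread among these arrays alone, and that spread could be technical.

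Cytosolic phospholipase A2, encoded by Pla2g4a, releases arachidonic acid from membrane phospholipids. The cyclooxygenases Ptgs1, which is made constitutively in many cells, and Ptgs2, which is inducible, convert it to prostaglandin H2, and terminal synthases such as Ptges and Hpgds turn that into prostaglandin E2 or D2, while Hpgd inactivates prostaglandins. In leukocytes, Alox5 with its membrane partner Alox5ap makes leukotriene A4, from which Lta4h makes leukotriene B4, a chemoattractant for neutrophils. Prostaglandin E2 is a well-known mediator of inflammation and bone loss in the tissues around teeth.

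Pla2g4a and both cyclooxygenase genes were lower in peri-implant soft tissue, Pla2g4a 5.63-fold, Ptgs2 4.35-fold and Ptgs1 2.04-fold. Hpgd, which inactivates prostaglandins, was 1.95-fold higher and Lta4h 1.28-fold higher. Hpgds, whose mucosal mean lay under the dim floor described below, was higher by 1.57 on the log2 scale as deposited and by 1.07 with values raised to the floor, a call that was lost when any 1 peri-implant array was left out. Of the 10 genes, 8 passed the filter on dim signals, and among these 3 rose, 3 fell and 2 did not pass the test. Hpgds, counted among those that rose, passed the filter through its peri-implant values. The test was limma's moderated test with Benjamini-Hochberg adjustment over all 18625 probe sets tested, and a gene passed at an adjusted p under 0.05. By the same rule 26.1% of the 10585 genes tested passed, 15.2% higher and 11.0% lower. In 7 of the 8 genes no peri-implant array fell within the mucosal range or the reverse, beside 41.9% of all genes tested. The median difference was 0.23 for the 8 genes and 0.03 for all genes tested, on the log2 scale.

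**Figure D1:**
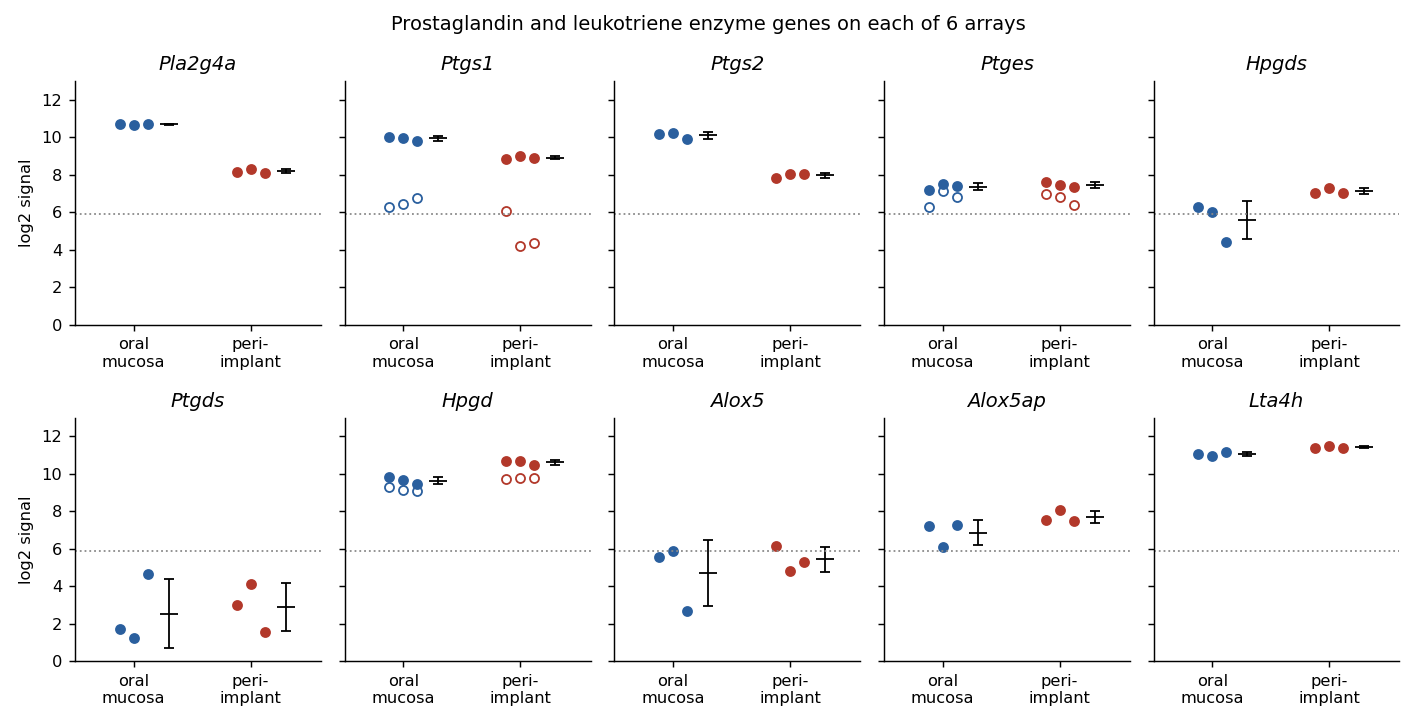
Log2 signal of the 10 genes on each array (y axis), for 3 oral mucosal arrays (blue) and 3 peri-implant arrays (red). Filled circles are the brightest probe set and open circles a gene's other probe set; black bars are the mean ± SD of the brightest, and the dotted line is the dim floor at 5.90. The 3 red points lie below the 3 blue points for Pla2g4a, Ptgs1 and Ptgs2 and above them for Hpgd, Lta4h, Hpgds and Alox5ap.

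Signals are log2 values as the authors deposited them, and differences are peri-implant minus mucosal on that scale. Pla2g4a (probe set 1387566_at) read 8.15, 8.30 and 8.12 on the peri-implant arrays and 10.70, 10.64 and 10.72 on the mucosal arrays. The arrays of each group lay close together and far from those of the other group. The means were 8.19 ± 0.10 and 10.68 ± 0.04 (SD, n = 3 each), and Pla2g4a fell by 2.49 (SE 0.10; limma adjusted p = 1.94e-09).

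Ptgs2 (1368527_at) read 7.83, 8.05 and 8.04 in peri-implant tissue and 10.16, 10.23 and 9.90 in mucosa. Every peri-implant array was lower than every mucosal array, and the gene fell by 2.12 (SE 0.13; limma adjusted p = 8.41e-08). Its 95% interval was -2.40 to -1.84.

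Ptgs1 (1368259_at) read 8.84, 8.98 and 8.90 against 10.04, 9.97 and 9.80, again with no overlap. It fell by 1.03 (SE 0.11; limma adjusted p = 1.29e-05), and its interval of -1.26 to -0.80 lay apart from that of Ptgs2. The difference between the 2 cyclooxygenases was not itself tested. The other Ptgs1 probe set, 1381806_at, was dimmer, at 6.09, 4.19 and 4.34 against 6.29, 6.46 and 6.76. It fell by 1.63 (SE 0.53; limma adjusted p = 0.0419), and with no filter its adjusted p was 0.110. Over the alternatives tried, the difference of Pla2g4a stayed between -2.55 and -2.46, that of Ptgs2 between -2.22 and -2.05 and that of Ptgs1 between -1.33 and -0.98, and each gene passed in all 16.

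**Figure D2:**
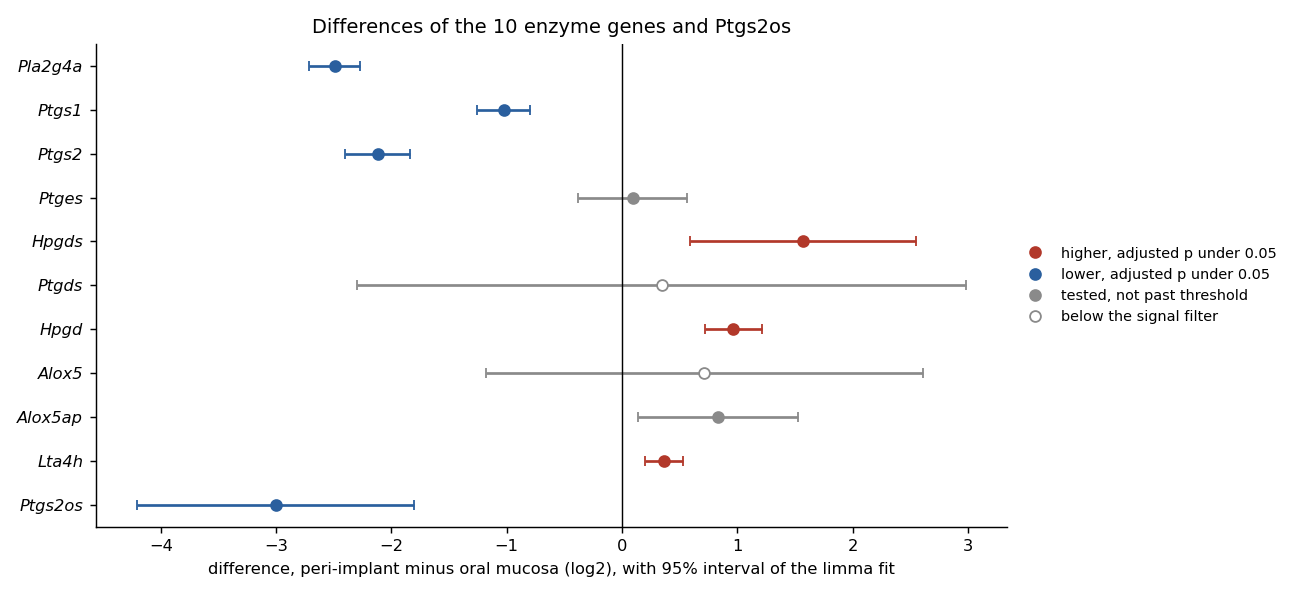
Difference in log2 signal, peri-implant minus oral mucosa (x axis), for the 10 genes and for Ptgs2os, with 95% intervals of the limma fit from 3 arrays a group. Red and blue mark genes past the threshold, grey filled points those tested and not past it, and open points the genes below the signal filter, Ptgds and Alox5, fitted without it. Pla2g4a and Ptgs2 fell by 2.49 and 2.12, and the intervals of Ptgds and Alox5 are wide.

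Pla2g4a and Ptgs2 are neighbours in the rat genome. In the RefSeq annotation of the GRCr8 assembly they follow each other among the protein-coding genes of their chromosome, and between them lie a pseudogene and Ptgs2os, a long non-coding RNA that runs away from Ptgs2 on the opposite strand, with 225 bases between their starts. Ptgs2os (1375986_at) read 5.30, 5.28 and 3.00 in peri-implant tissue and 7.35, 7.66 and 7.58 in mucosa. All 3 peri-implant values were under the dim floor of 5.90, the 40th percentile of all single values. Ptgs2os fell by 3.00 (SE 0.55; limma adjusted p = 0.00151), or by 1.63 with values under the floor raised to it. It passed the filter on dim signals through its mucosal values, so the filter favoured a call of lower. The genes beyond Ptgs2 were examined after these values had been seen. Pdc, a phosducin gene known from photoreceptors, was too dim to be tested, at 3.59 ± 1.52 against 5.62 ± 0.29. Odr4 stood at 8.41 ± 0.19 against 8.81 ± 0.19 (SD, n = 3 each; limma adjusted p = 0.0807). Tpr, a nuclear pore protein, fell by 0.40 (SE 0.09; limma adjusted p = 0.00687). Of the 13 protein-coding and long non-coding genes from 5 before Pla2g4a to 5 after Ptgs2, 6 had a probe set of their own here, and none of those 6 lay before Pla2g4a.

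**Figure D3:**
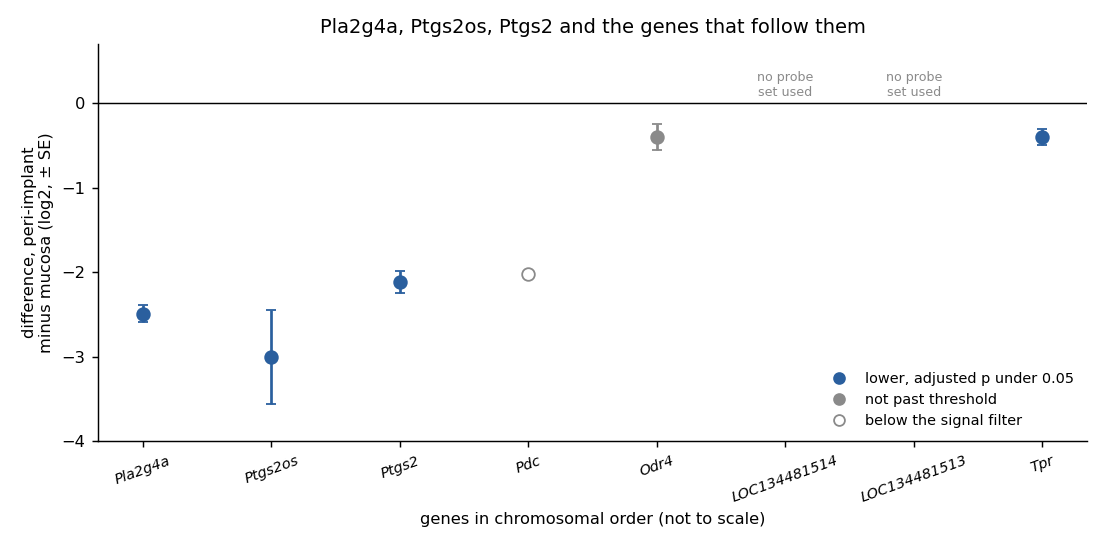
Difference in log2 signal ± SE (y axis) for Pla2g4a, Ptgs2os, Ptgs2 and the genes after them, in chromosomal order and not to scale (x axis); each point is 3 peri-implant against 3 mucosal arrays. Blue genes passed the threshold, grey did not, and Pdc (open) was below the signal filter. Ptgs2os passed the signal filter through its mucosal values. The falls of the first 3 genes are 2.49, 3.00 and 2.12, and that of Ptgs2os is 1.63 with values raised to the floor. They are followed by -2.03 for Pdc, which was not tested, -0.41 for Odr4 and -0.40 for Tpr.

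The 250 bases before the start of the 3 genes that fell, and of Hpgd, which rose on both of its probe sets, are shown because these are the members with the smallest adjusted p-values; sequences are from RefSeq on GRCr8, each read 5′ to 3′ on the strand of its gene. Capitals mark matches on either strand to the TATA box (TATAAA), the E-box (CACGTG), an AP-1 type site (TGANTCA), the cyclic AMP response element (TGACGTCA), the GC box (GGGCGG) and a loose NF-κB type pattern, which is GGG and CC with any 5 bases between them.
Pla2g4a, chr13:64572353-64572602, minus strand: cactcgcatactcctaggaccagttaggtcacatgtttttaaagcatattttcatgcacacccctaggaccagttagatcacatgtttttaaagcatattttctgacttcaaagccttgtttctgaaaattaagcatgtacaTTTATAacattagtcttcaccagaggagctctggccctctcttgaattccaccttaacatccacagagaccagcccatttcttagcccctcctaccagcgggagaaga
Ptgs2, chr13:64713813-64714062, plus strand: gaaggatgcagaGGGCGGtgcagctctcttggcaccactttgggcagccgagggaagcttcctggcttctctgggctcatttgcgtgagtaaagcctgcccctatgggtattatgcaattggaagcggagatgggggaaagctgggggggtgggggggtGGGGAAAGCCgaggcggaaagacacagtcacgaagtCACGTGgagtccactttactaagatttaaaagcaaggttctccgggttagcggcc
Ptgs1, chr3:39981169-39981418, plus strand: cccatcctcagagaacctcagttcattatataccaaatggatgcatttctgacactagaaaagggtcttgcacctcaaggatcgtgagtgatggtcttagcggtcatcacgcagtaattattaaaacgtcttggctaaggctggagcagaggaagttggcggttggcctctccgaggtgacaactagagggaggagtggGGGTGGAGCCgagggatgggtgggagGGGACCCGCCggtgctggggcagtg
Hpgd, chr16:39034832-39035081, minus strand: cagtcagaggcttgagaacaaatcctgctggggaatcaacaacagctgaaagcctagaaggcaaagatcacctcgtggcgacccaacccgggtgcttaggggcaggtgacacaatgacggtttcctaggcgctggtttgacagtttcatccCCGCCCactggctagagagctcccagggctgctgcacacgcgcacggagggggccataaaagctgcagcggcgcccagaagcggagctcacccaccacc
The windows differed in base composition, with 42.4% G and C for Pla2g4a, 57.2% for Ptgs2 and 54.4% for Ptgs1, beside a median of 51.2% over all 33469 promoters in the table. The Ptgs2 window held a GC box at 238 to 233 bases before the start, the NF-κB type pattern at 91 to 82 and an E-box at 55 to 50. Since Ptgs2os starts within this window on the other strand, the E-box also lay in the window of Ptgs2os. The Ptgs1 window held the NF-κB type pattern at 51 to 42 and at 25 to 16 bases before the start. The Pla2g4a window held only a reversed TATA box at 108 to 103, and that of Hpgd only a reversed GC box at 99 to 94. Matches to the NF-κB type pattern and the GC box can overlap, but did not in these 4 windows. Of all promoters, 42.3% held the NF-κB type pattern in the same 250 bases, 30.5% the GC box, 12.9% the TATA box, 6.34% the AP-1 type site, 5.59% the E-box and 1.59% the cyclic AMP response element. No motif of the 6 was matched in all 3 genes that fell. A match is a description of letters and not a binding site. Promoters were found for 8 of the 10 members; Hpgds and Alox5ap were without an entry.

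Among the terminal prostaglandin synthases, Ptges, the inducible prostaglandin E synthase mPGES-1, did not pass. Its brightest probe set (1368014_at) read 7.61, 7.44 and 7.32 against 7.18, 7.53 and 7.38, so the groups overlapped. The difference was 0.09 with a 95% interval of -0.38 to 0.57 (limma adjusted p = 0.807), and that of its second probe set (1368015_at) was -0.01 with an interval of -0.70 to 0.68. These intervals are wide enough to hold changes in either direction and do not show equality.

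Hpgds, the hematopoietic prostaglandin D synthase, (1368492_at) read 7.05, 7.30 and 7.04 in peri-implant tissue and 6.27, 6.02 and 4.40 in mucosa. The groups did not overlap, but the mucosal arrays were spread widely and the third was under the dim floor. Hpgds rose by 1.57 (SE 0.45; limma adjusted p = 0.0246). Its mucosal mean of 5.56 was under the filter's threshold of 5.68. Hpgds thus passed the filter through its peri-implant values, so the filter favoured a call of higher. The difference was 1.07 with the floor and 0.99 without mucosal array 3, and it passed in both. It did not pass with any 1 peri-implant array left out (adjusted p from 0.0624 to 0.0959 in limma), without the filter (0.0524) or without the variance trend (0.0839). Ptgds, the lipocalin-type prostaglandin D synthase, (1367851_at) was under the floor on all 6 arrays, at 3.01, 4.12 and 1.55 against 1.74, 1.26 and 4.66. It was not tested in the main comparison. Fitted without the filter its difference was 0.34 with an interval of -2.30 to 2.98.

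Hpgd, 15-hydroxyprostaglandin dehydrogenase, was the member of prostaglandin breakdown. Its brightest probe set (1376191_at) read 10.72, 10.67 and 10.46 against 9.85, 9.66 and 9.44, with every peri-implant array above every mucosal one. Hpgd rose by 0.97 (SE 0.11; limma adjusted p = 3.63e-05). The second probe set (1387631_at) read 9.76, 9.79 and 9.80 against 9.29, 9.13 and 9.07 and rose by 0.62 (SE 0.10; limma adjusted p = 6.46e-04). The direction was thus the same on both probe sets.

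In the leukotriene branch 1 gene passed the test, Lta4h. Alox5, 5-lipoxygenase, (1368776_at) read 6.16, 4.84 and 5.33 against 5.59, 5.91 and 2.69, with 2 arrays of each group under the floor, and it was below the filter. Fitted without the filter its difference was 0.71 with an interval of -1.18 to 2.61, so no change in either direction could be detected at this signal. Alox5ap, the 5-lipoxygenase activating protein FLAP, (1369672_at) read 7.54, 8.07 and 7.52 against 7.21, 6.11 and 7.29. The groups did not overlap, but mucosal array 2 stood more than 1 log2 unit below the others. The difference was 0.83 (SE 0.32, interval 0.14 to 1.53; limma adjusted p = 0.0827) and did not pass. Without mucosal array 2 it was 0.45 (limma adjusted p = 0.244), and without mucosal array 3 it was 1.05 and passed (limma adjusted p = 0.0476). Lta4h, leukotriene A4 hydrolase, (1389010_at) read 11.40, 11.47 and 11.41 against 11.07, 10.97 and 11.16. It rose by 0.36 (SE 0.08; limma adjusted p = 0.00365), a small difference between tight groups, and without the variance trend it did not pass (limma adjusted p = 0.0525).

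These are bulk samples, in which fewer cells of a type and less RNA per cell cannot be told apart. The marker counts below stand beside 15.2% of all genes tested that were higher and 11.0% that were lower. Several lists had few tested genes. Fibroblast markers were lower in 6 of 8 and higher in 1, Dcn, and their summed signal was 15.40 to 15.46 in peri-implant tissue and 16.13 to 16.26 in mucosa. Macrophage markers were higher in 9 of 10 tested and lower in 0, with sums of 13.38 to 13.49 against 12.39 to 12.42; Cd163 was under the floor on every array. Of the markers of T and natural killer cells 5 of 5 tested were higher. Cd3e, 1 of these, passed the filter through its peri-implant values, with all 3 mucosal values under the floor. Of the 4 on the array not tested, Cd3d and Cd8a were higher without overlap, and Cd4 and Nkg7 overlapped. The sums over all 9 were 10.66 to 10.80 against 8.93 to 9.07. Of the neutrophil markers 3 of 4 tested were higher, and Cxcr2 did not pass, at 7.75 against 7.86. The neutrophil sums (16.85 to 17.30 against 14.69 to 14.81) were set by S100a8 and S100a9, by far the brightest. Keratinocyte markers were bright in both tissues, with 3 of 9 higher and 1 lower. Krt4 rose by 3.12, Krt1 by 1.14 and Cdh1 by 0.34, and Krt5 fell by 0.50. The sums overlapped (18.31 to 18.76 against 18.26 to 18.75), but they were set by the brightest markers and do not show these changes. Mast cells are a known source of prostaglandin D2, and of their 9 markers on the array 7 were under the floor on every array, Kit, Ms4a2, Tpsab1 and Cma1 among them; 1 was tested and did not pass. The tested marker, Tpsb2, read 6.59, 5.93 and 6.26 against 6.83, 7.53 and 6.81, lower without overlap (limma adjusted p = 0.0990). The mast cell sums, which include the genes under the floor, overlapped, at 7.72 to 8.28 against 7.42 to 8.47. Endothelial markers were higher in 1 of 6, B and plasma cell markers in 1 of 2, dendritic cell markers in 2 of 2, eosinophil markers in 1 of 1 and erythrocyte markers in 2 of 3, with 0 lower in each. The endothelial share of 16.7% was near that of all genes, and the other lists here are too short for a share to be read. The eosinophil marker was Siglec5, while Prg2, Epx and Il5ra were under the floor on every array. So were the neutrophil genes Mmp8, Camp and Cxcr1 and the B cell genes Cd79b and Ms4a1. Jchain (B and plasma cell), Itgax (dendritic cell) and Adgre1 (macrophage) were higher with all 3 mucosal values under the floor. Siglec5 had 2 under it. Like Cd3e, these genes passed the filter through their peri-implant values, so the filter favoured a call of higher. With values raised to the floor the differences were 1.71 for Jchain, 2.71 for Itgax, 1.38 for Adgre1 and 2.80 for Siglec5. Smooth muscle markers were lower in 1 of 4, bone markers in 2 of 3 and salivary markers in 1 of 3, with 0 higher among those tested. Bglap, osteocalcin, a bone marker below the filter, ran the other way, at 7.16, 6.97 and 6.75 in peri-implant tissue and 4.49, 1.61 and 2.05 in mucosa, all 3 under the floor (difference 4.24, or 1.06 with the floor; limma adjusted p = 0.00414 without the filter). So did Tagln, a tested smooth muscle marker, at 6.78, 6.92 and 7.16 against 6.38, 4.83 and 6.13. It did not overlap but did not pass (limma adjusted p = 0.0600). Myh11 and Des, lower with overlap, did not pass either. No skeletal muscle marker passed the filter, and Myh4, Myh2 and Myl11 were under the floor on every array. The summed signal, which includes these, did not overlap, at 6.59 to 7.42 against 7.97 to 8.10. Acta1 was the brightest of the list in mucosa. By their means Acta1, Myh2, Ckm and Myl11 were lower in peri-implant tissue. Tnnt3 (4.78 against 3.67) and Myh4 (3.17 against 2.60) were higher, with overlap. Acta1, skeletal muscle actin, was under the floor on the peri-implant arrays, at 2.52, 1.55 and 4.53, and read 6.90, 6.97 and 6.93 in mucosa (difference -4.07, or -1.04 with the floor; limma adjusted p = 0.00469 without the filter). The part of these marker differences in the falls of Pla2g4a, Ptgs1 and Ptgs2 and in the rises of Hpgd, Hpgds and Lta4h was not tested.

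By root mean square distance between profiles over the 6 arrays, each centred on its mean, the genes most like Pla2g4a among 10584 were Eppk1, an epithelial plakin, at 0.08 log2 units, Cd55, a complement decay-accelerating factor, at 0.10 and Tnc, tenascin-C, at 0.13. Eppk1 was 11.17 ± 0.08 against 13.53 ± 0.05, Cd55 6.43 ± 0.01 against 9.05 ± 0.13 and Tnc 9.24 ± 0.13 against 11.93 ± 0.06 (SD, n = 3 each). The genes most like Hpgds were farther off, Ddx25 at 0.25, C1h16orf54 at 0.27 and Stbd1 at 0.28, and each of these was also lowest on mucosal array 3. The distance uses the same group difference as the test and describes likeness only.

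The rest of the pathway was read from a list of 84 entries, of which 70 were on the array and 44 passed the filter. This list too was chosen with earlier results of these data known. Of the 44, 10 were higher and 8 lower, together 40.9% beside 26.1% of all genes tested, with a median difference of -0.03.

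Among other phospholipases and lipases 3 of 13 tested were higher, 2 lower and 8 did not pass. Of the phospholipase A2 genes among them, Pla2g2a, Pla2g4b and Pla2g4e rose and Pla2g3 fell. Pla2g12a, Plaat3 (also named Pla2g16), Pla2g5, Pla2g15, Pla2g6 and Pla2g2f did not pass. Pla2g2a, a secreted enzyme that also kills bacteria, read 11.18, 11.28 and 11.23 against 6.80, 6.12 and 7.12, with every mucosal array far below, and rose by 4.55 (SE 0.20; limma adjusted p = 3.75e-09). Pla2g4b and Pla2g4e encode cytosolic relatives of Pla2g4a, and Pla2g4b rose by 1.26 (SE 0.14) and Pla2g4e by 0.99 (SE 0.12), with limma adjusted p-values of 1.93e-05 and 6.26e-05. Pla2g4e is better known as an N-acyltransferase than as a source of arachidonate. Pla2g3, a secreted enzyme, fell by 0.64 and Mgll, the monoacylglycerol lipase, by 0.44 (limma adjusted p = 0.0420 and 0.0276). With the mean of its probe sets Mgll fell by 0.17 and did not pass (limma adjusted p = 0.691), nor did it without peri-implant array 1, peri-implant array 2 or mucosal array 1 (limma adjusted p = 0.0782, 0.0890 and 0.121). Pla2g3 did not pass in 6 of its 15 alternatives.

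Among other prostanoid enzymes 1 of 6 tested was higher and 0 lower. That was Prxl2b, a prostaglandin F synthase, which rose by 0.78 (SE 0.20; limma adjusted p = 0.0132). Tbxas1, thromboxane synthase, read 7.09, 7.11 and 6.70 against 6.40, 7.64 and 4.77. Its mucosal arrays were on both sides of the peri-implant ones, and it did not pass (limma adjusted p = 0.413). The prostaglandin E synthases Ptges2 and Ptges3 stood at 9.49 ± 0.05 against 9.51 ± 0.10 and at 13.57 ± 0.03 against 13.73 ± 0.06 (SD, n = 3 each), and neither passed. Ptgis, the prostacyclin synthase, was too dim to be tested.

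Of the lipoxygenases and the enzymes that make and trim the cysteinyl leukotrienes, 3 of 8 tested were higher and 3 lower. Ggt1, a γ-glutamyl transferase that cuts leukotriene C4 and also acts on glutathione, read 10.72, 10.87 and 10.62 against 7.87, 8.04 and 8.18. It rose by 2.71, or 6.54-fold (SE 0.12; limma adjusted p = 3.29e-09), with no overlap. The microsomal glutathione transferases went opposite ways: Mgst2, which can make leukotriene C4, rose by 1.02 (SE 0.07) and Mgst3 fell by 1.00 (SE 0.09), with limma adjusted p-values of 1.83e-07 and 3.79e-06. Ltc4s, the dedicated leukotriene C4 synthase, stood at 7.92 ± 0.21 against 7.34 ± 0.24 and did not pass (limma adjusted p = 0.0729). Of the lipoxygenases, Alox12 rose by 0.38 and Aloxe3, of the skin barrier, fell by 0.43. Cotl1, a 5-lipoxygenase binding protein that also binds actin, fell by 0.41.

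In the epoxide and cytochrome P450 branch 2 of 7 tested were higher and 1 lower. Cyp2j10 read 10.54, 10.50 and 10.53 against 9.22, 9.21 and 9.16 and rose by 1.33 (SE 0.09; limma adjusted p = 1.52e-07). Cyp2j3 rose by 0.72 and Cyp2j4 fell by 0.39 (limma adjusted p = 0.0343 and 0.0144). These calls were less firm, and were lost in 7 of 15 and in 3 of 16 alternatives.

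Receptors were mostly too dim to be measured. Of 12 on the array 9 were below the filter, among them Ptger1, Ptger2 and Ptger4 for prostaglandin E2 and both cysteinyl leukotriene receptors. The 3 tested were the prostaglandin E2 receptor Ptger3 and the leukotriene B4 receptors Ltb4r and Ltb4r2, and 0 passed limma's test, with 0 at an unadjusted p under 0.05 either. Ptger3 read 9.48, 9.02 and 8.92 against 9.34, 9.62 and 8.61, an overlap with a difference of -0.05 and an interval of -0.53 to 0.43. Ltb4r read 7.27, 7.63 and 7.73 against 8.07, 8.21 and 7.49, with an interval of -0.88 to 0.13.

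In the group of transport and breakdown 1 of 7 was higher and 2 lower. Slco2a1, the transporter that takes prostaglandins into cells for breakdown, read 8.46, 8.56 and 8.58 against 7.85, 7.66 and 7.86. It rose by 0.74 (SE 0.16; limma adjusted p = 0.00404), and with the mean of its probe sets the adjusted p was 0.190. Ptgr1, which reduces 15-keto prostaglandins and leukotriene B4, fell by 0.62 (SE 0.09; limma adjusted p = 3.07e-04). Ptgfrn, a membrane protein that inhibits prostaglandin F2α binding to its receptor, fell by 0.27 (SE 0.07; limma adjusted p = 0.0135), and this call was lost in 4 of 16 alternatives. Members of this group and of the others have further roles outside eicosanoid metabolism, and the counts describe transcripts and not mediators.

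**Figure D4:**
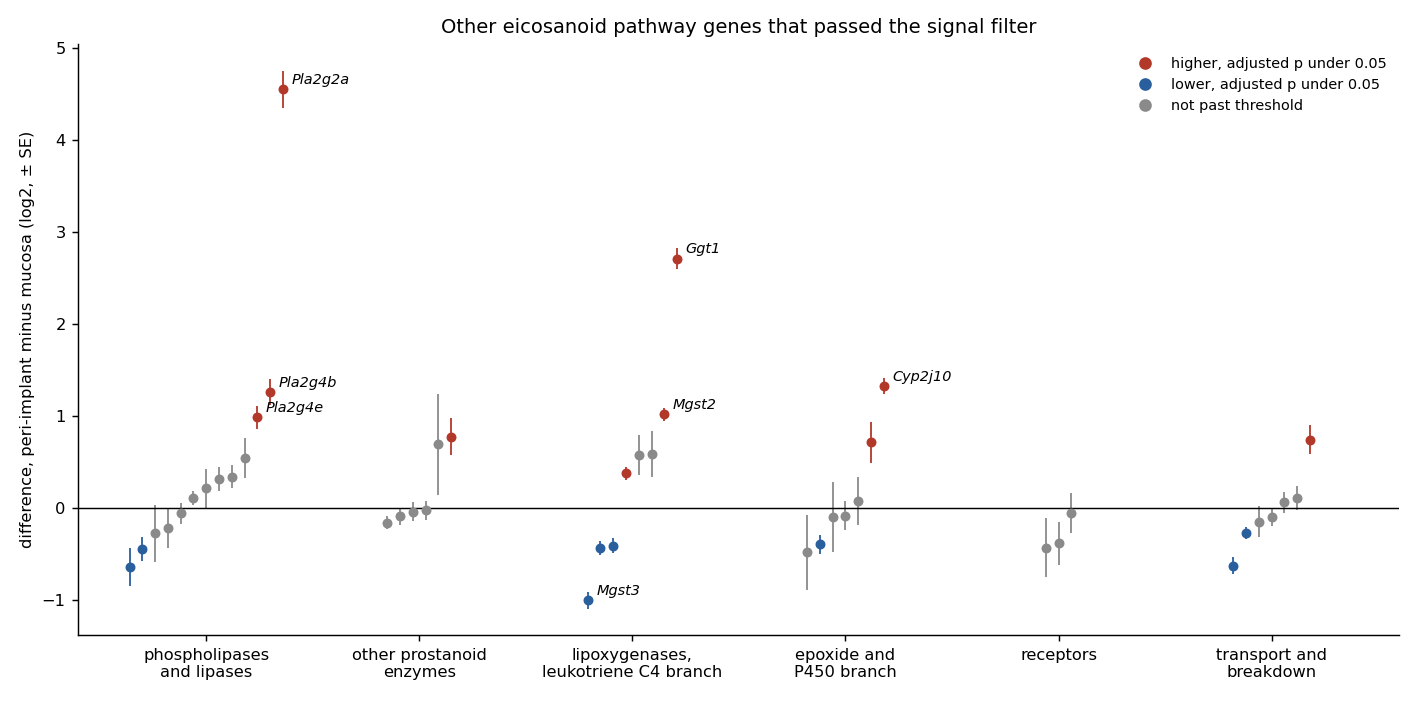
Difference in log2 signal ± SE (y axis) for the 44 other pathway genes that passed the signal filter, in 6 groups (x axis), 3 peri-implant against 3 mucosal arrays each. Red genes were higher, blue lower and grey not past the threshold. Pla2g2a at 4.55 and Ggt1 at 2.71 stand above the rest, and no receptor passed.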

How the data were processed

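Total RNA from each of 6 samples was labelled with biotin through an Affymetrix 3' kit and hybridised to its own array, per the labels' protocols. The deposited table held log2 signals for 31099 probe sets, 57 of them controls. The authors had scaled each array before deposit: the linear mean with 2% trimmed at each end was equal over the arrays, and the lowest log2 value was 0 on all. The software, the background method and the array build were not given in the sources used here. Array medians were 6.62 to 6.78. The number of arrays limits the precision.

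Values were used as deposited. Probe sets with a mean above the 40th percentile (5.68) were tested with limma 3.58.1 in R 4.3.3 (lmFit, eBayes with a variance trend, two-sided, Benjamini-Hochberg, 0.05), 3 arrays against 3. The SE and intervals are from this fit, which was tested on simulated data. Symbols came from the platform's annotation (20826 probe sets with 1, 436 with several, 9780 non-control with none). The named genes were all 10 members, Ptgs2os, up to 5 genes with the smallest p among those passing in each pathway group, the 3 nearest profiles to the members with the largest rise and fall, and marker counts; Cotl1, ranked sixth in its group, the pathway genes that did not pass or were too dim, and the neighbours of Ptgs2 were named after their values were seen. Members and lists were chosen with earlier results of these data known. Alternatives were other normalisations, filters, a floor, variance models, array weights, probe set means, a replicate block and leaving out each array.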

Additional observations from a re-analysis of the deposited data

How the results depend on the processing

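Each of the 3 members that fell passed under all 16 alternatives, and so did Hpgd; no difference changed sign for the 32 tested genes followed, and 458 of 503 gene and alternative pairs kept their side of the threshold. Without the variance trend 1 member, Hpgd, instead of 3 was higher, and 718 instead of 1161 of all genes were lower; the cause was not tested. Leaving out 1 array gave 2 to 4 higher members, and 5 to 8 instead of 8 lower genes of the wider pathway, with 5 without peri-implant array 1, without peri-implant array 2 or without mucosal array 1. The labels do not say that arrays of equal number share a rat, so the numbers were not taken as pairs. The deviations of arrays of equal number had correlations of 0.01, -0.08 and 0.03. With 3 arrays a group these values cannot show whether the samples were pairs. With the replicate block 3 members were higher and 3 lower, as without it, and 1562 and 1142 of all genes. Dim signal limits Ptgds, Alox5, Hpgds and most receptors.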
